A study of Zea mays subsp. mays with 11 samples.

Results

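Of the 430 loci of maize that are annotated as sources of 21-nt phased small interfering RNAs (21-PHAS loci), 86 were both abundant and steady between the anther lengths compared here. They were chosen by a mean of at least 200 CPM (read counts scaled to the library total) over the 6 libraries of heterozygous anthers and by a length ratio, mean CPM in 5 mm anthers over mean CPM in 2 mm anthers with 1 CPM added to both, above 0.667 and below 1.4 in the same libraries. In addition, 13 loci were left out by number. The table held 659 PHAS loci in all, and all 86 loci passed the filter on low values. Since the heterozygous libraries chose the loci, levels and length ratios in those libraries are given as a description, without a test.

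The 11 libraries held small RNAs bound by Argonaute proteins in whole anthers, isolated with the TraPR method. They comprised ago18HM-5mm (n = 3), ago18HM-2mm (n = 2), ago18HT-5mm (n = 3) and ago18HT-2mm (n = 3), and replicates came from distinct plants. ago18HM plants were homozygous for mutations in all AGO18 copies, with single-nucleotide deletions in ago18a and ago18b that shift the reading frame and a Mu transposon in the coding sequence of ago18c. Their ago18HT siblings were heterozygous at all of these genes, so that no group was free of the mutations, and the background of all plants was labelled mostly B73 and carried no transgene. Plant age was not given in the sources used here, and the table holds no gene from which the tissue could be checked.

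21-nt phasiRNAs arise from long noncoding precursors that RNA polymerase II transcribes. In the canonical pathway of grasses, miR2118 directs the first cut of a precursor, an RNA-dependent RNA polymerase makes it double-stranded, and a Dicer-like protein then cuts it in register, so that 1 locus gives many small RNAs of 1 length. These RNAs are best known from young anthers before meiosis, and Argonaute proteins, of which AGO18 is a grass family active in anthers, carry them. The CPM of a locus here therefore counts the small RNAs of that locus that Argonaute proteins held.

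The most abundant small RNA annotated at each locus is shown for the loci on which the comparisons turn: the most abundant ones, those with the largest changes, and those that share this small RNA with another locus. The first base at the 5′ end, which plays a part in the sorting of small RNAs between Argonaute proteins, stands in capitals. Coordinates are on B73 RefGen_v5.

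B73_21PHAS_21386 (chr4:8029613-8030912, plus strand): Aaugcacuggaguaggcacuc
B73_21PHAS_12188 (chr2:163837086-163837883, plus strand): Cagaaaggucucacugugcug
B73_21PHAS_4258 (chr1:182384848-182385965, minus strand): Acacgucuccgucccugucuc
B73_21PHAS_12096 (chr2:158846073-158847497, plus strand): Agugugugacucgugcggugc
B73_21PHAS_3888 (chr1:166828130-166829624, plus strand), shared with B73_21PHAS_3893: Augagacauuggucacuccug
B73_21PHAS_48790 (chr9:24710590-24711436, minus strand): Gaagacacgguaaucauacug
B73_21PHAS_7660 (chr1:290364931-290365610, minus strand): Aguuucucuucuaguguggac
B73_21PHAS_39867 (chr7:21205064-21206043, minus strand): Acuccggacucggaaacucgu
B73_21PHAS_47038 (chr8:165510768-165511868, plus strand): Cuagauuuguugcugaccuaa
B73_21PHAS_15743 (chr3:18283805-18284865, plus strand): Gugaaaucgucacaggcacua
B73_21PHAS_11702 (chr2:140799152-140801505, strand not called), shared with B73_21PHAS_11720: Acacaugucaauguuucucgu
B73_21PHAS_54516 (chr10:118820299-118821353, plus strand), shared with B73_21PHAS_54521 and B73_21PHAS_54525: Aguucuuggacuauauacgua
B73_21PHAS_21414 (chr4:8187421-8189098, plus strand), shared with B73_21PHAS_21400: Ugccauugguaacacggauag
B73_21PHAS_4267 (chr1:182489590-182490397, plus strand), shared with B73_21PHAS_4269: Aacagcugagagaaucuugau

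Depth and length went together. Library totals, recovered from the steps between CPM values, were 5419067 to 17805878 reads in the 5 mm libraries and 33076189 to 53038060 reads in the 2 mm libraries, and the part of depth in any length comparison cannot be told apart from that of length. Depth did not limit single values, since the lowest read number of any of the 86 loci in any library was 822 (ago18HM-5mm replicate 2). 1 library stood apart over these loci. The values of ago18HM-5mm replicate 1 correlated with those of replicates 2 and 3 with r = 0.742 and 0.745 on the log2 scale, across 86 loci that share these libraries, whereas replicates 2 and 3 gave r = 0.967 and pairs within the other groups gave 0.892 to 0.963. In ago18HM-5mm replicate 1, 11 loci lay more than 1.5-fold above and 10 more than 1.5-fold below both other replicates. In replicate 2 there were 0 and 0 such loci, and in replicate 3 there were 2 and 0. Counts of calls and the main descriptive values below are also given without this library.

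**Figure D1:**
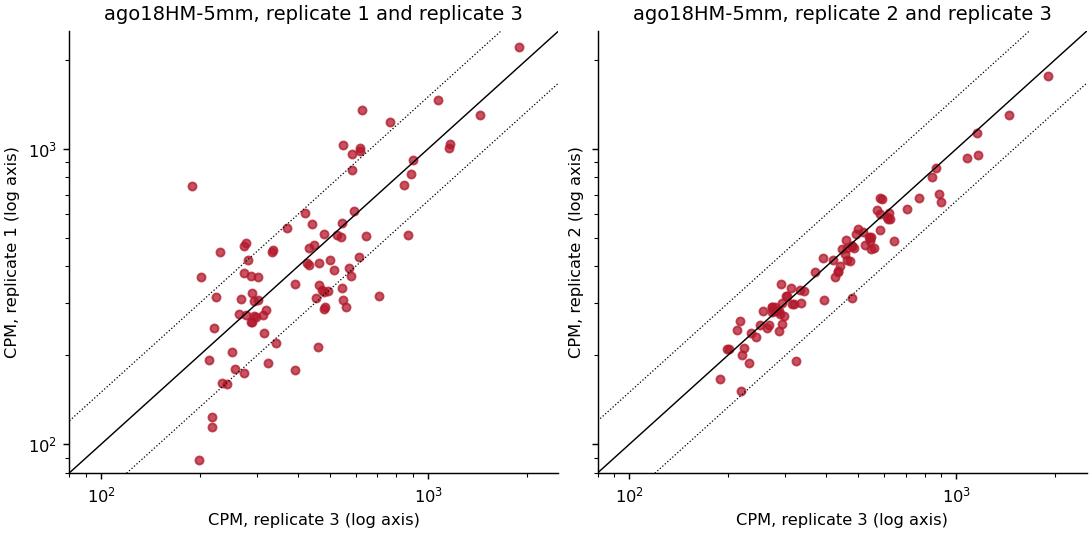
CPM of the 86 loci in ago18HM-5mm replicate 1 (left) and replicate 2 (right) on the vertical axis against replicate 3 on the horizontal axis, both on log scales. Each point is 1 locus, the solid line marks equal values and the dotted lines a 1.5-fold difference, which 28 loci exceeded between replicates 1 and 3 and 2 loci between replicates 2 and 3.

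Together the 86 loci supplied a slightly larger share of the 21-PHAS signal at 5 mm than at 2 mm, in both genotypes. They summed to 41698, 38588 and 41069 CPM in ago18HM-5mm, 44311 and 40064 CPM in ago18HM-2mm, 33794, 34712 and 35764 CPM in ago18HT-5mm, and 35265, 35523 and 33417 CPM in ago18HT-2mm. At each length every ago18HM library was thus above every ago18HT library. These sums were 47.2 ± 0.972% of all 21-PHAS CPM in ago18HM-5mm (SD, n = 3), 44.7 ± 0.0909% in ago18HM-2mm (SD, n = 2), 47.3 ± 1.33% in ago18HT-5mm (SD, n = 3) and 44.8 ± 1.22% in ago18HT-2mm (SD, n = 3). The shares lay between 46.0 and 48.6% in the 6 libraries of 5 mm anthers, all above the 43.4 to 45.7% of the 5 libraries of 2 mm anthers, while ago18HM and ago18HT overlapped at each length. This is a description, since the length ratio in ago18HT was part of the choice. The ratio of the mean sum in ago18HM to that in ago18HT was 1.16 at 5 mm and 1.21 at 2 mm, and the ratio of 5 mm to 2 mm in ago18HM was 0.959. In libraries from whole anthers, fewer cells of a type and less RNA per cell cannot be told apart.

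The direction of the genotype difference at 5 mm, and its size at 2 mm, depended on what the CPM were relative to. Meiotic 24-PHAS loci, the other large source of phasiRNAs in these anthers, summed to 11068 to 16838 CPM in ago18HM-5mm, against 219707 to 266871 CPM in ago18HT-5mm. At 2 mm they summed to 26351 and 41553 CPM in ago18HM, against 117705 to 237337 CPM in ago18HT. With the meiotic 24-PHAS reads left out of the denominator of the CPM, an alternative added after seeing the data, the ratio of the summed CPM of the 86 loci, ago18HM over ago18HT, was 0.891 at 5 mm and 1.02 at 2 mm. The share of the 21-PHAS signal does not depend on the denominator.

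**Figure D2:**
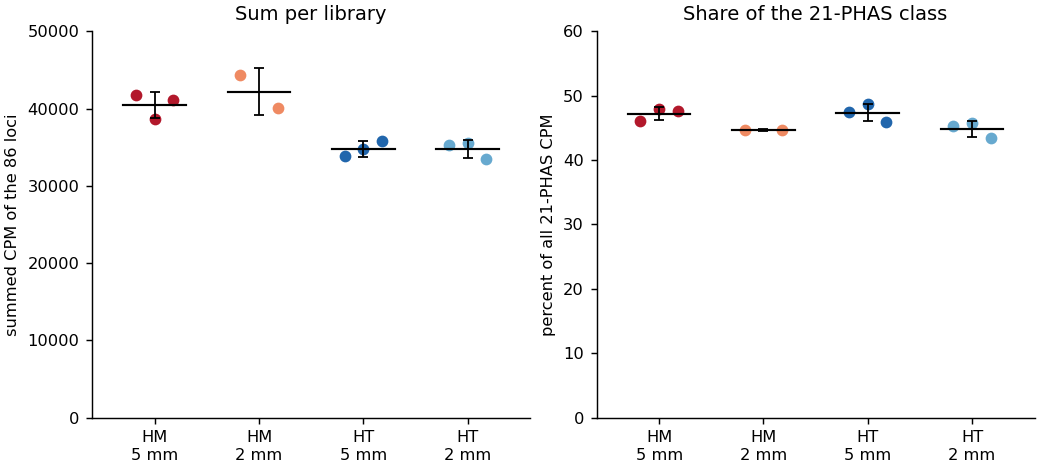
Summed CPM of the 86 loci (left) and their percent of all 21-PHAS CPM (right) in each library of the 4 groups. Points are libraries, horizontal lines are group means and error bars are SDs (n = 3, and 2 for HM 2 mm); HM libraries lie above HT libraries in the sums, while the shares lie between 46.0% and 48.6% in the 5 mm libraries, all above the 43.4% to 45.7% of the 2 mm libraries.

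Levels differed widely within the set. Mean CPM over the ago18HT libraries ran between 203 and 1111 with a median of 368, a 5.48-fold span, and mean CPM per kb of locus length ran between 109 and 1372, a 12.6-fold span. The most abundant locus was B73_21PHAS_21386, with 2205, 1764 and 1900 CPM in ago18HM-5mm, 1298 and 1171 CPM in ago18HM-2mm, 1352, 1188 and 1154 CPM in ago18HT-5mm, and 1041, 1020 and 911 CPM in ago18HT-2mm. Per kb the highest was B73_21PHAS_12188, with 1372 CPM per kb in ago18HT, followed by B73_21PHAS_21386 with 855 and B73_21PHAS_35648 with 820 CPM per kb. B73_21PHAS_12188 had 1298, 1306 and 1444 CPM in ago18HM-5mm, 1277 and 1559 CPM in ago18HM-2mm, 1161, 1223 and 1168 CPM in ago18HT-5mm, and 857, 1035 and 1124 CPM in ago18HT-2mm. Its libraries overlapped between the lengths in ago18HM, and all ago18HM libraries were above all ago18HT libraries at each length.

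The next loci by mean CPM in ago18HT were B73_21PHAS_4258 with 909.9, B73_21PHAS_21229 with 891, B73_21PHAS_3918 with 833 and B73_21PHAS_3895 with 808 CPM. B73_21PHAS_4258 and B73_21PHAS_21229 had higher means at 5 mm than at 2 mm in both genotypes, with ratios of 1.18 and 1.65 in ago18HM and 1.32 and 1.12 in ago18HT. For B73_21PHAS_3918 and B73_21PHAS_3895 the ratios were below 1 in both genotypes, 0.918 and 0.712 in ago18HM and 0.926 and 0.832 in ago18HT. None of the 4 was called in any comparison, although the length change of B73_21PHAS_3895 in ago18HM, -0.49 on the log2 scale, had an adjusted p of 0.0358 in limma and missed only the 1.5-fold limit. The abundant loci therefore did not share 1 direction. The signal was also not confined to a few loci, since the 10 most abundant ones held 20.4 to 25.9% of the summed CPM of the 86 in each library.

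The order of the loci by mean CPM was similar in the genotypes at each length. Spearman correlations across the 86 loci, which share their libraries within each mean, were 0.922 between ago18HM-5mm and ago18HT-5mm and 0.893 between ago18HM-2mm and ago18HT-2mm. Between the lengths in ago18HM the value was 0.832. It was 0.842 without ago18HM-5mm replicate 1, and that between the genotypes at 5 mm was then 0.951. In ago18HT the choice of the loci fixed the order between lengths in part, and no value is given.

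At the limits of the choice, values of loci inside and outside were close. B73_21PHAS_7653 was just inside the abundance limit with a mean of 203 CPM in ago18HT, and B73_21PHAS_39551 was just outside with 199.7 CPM. At the lower ratio limit B73_21PHAS_39868 was just inside, with a length ratio of 0.6672 in ago18HT, and B73_21PHAS_11720 was just outside with 0.665. At the upper limit B73_21PHAS_17597 was inside with 1.38 and B73_21PHAS_11741 outside with 1.41. Of the loci left out by number, B73_21PHAS_11726 alone met both limits, with a mean of 316 CPM and a ratio of 1.35 in ago18HT.

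The ago18HM libraries had no part in the length ratio, and the first comparison asked whether the loci were also steady between the lengths in them. In ago18HM 65 of the 86 loci (75.6%) had a ratio inside the same window, beside 59.9% of the other 21-PHAS loci and 56.4% of all PHAS loci. At or below the lower limit were 15 loci, and 6 were at or above the upper limit, with ratios between 0.498 and 1.80 and a median of 0.938. In the limma fit 12 loci were lower and 3 were higher in ago18HM-5mm than in ago18HM-2mm (adjusted p below 0.05 and a change above 1.5-fold). The background of such calls was 20.2% lower and 3.95% higher over all PHAS loci and 16.0% lower and 5.52% higher over the other 21-PHAS loci, with 5.12% higher over all 21-PHAS loci. The median log2 fold change was -0.12 for the 86 loci, -0.12 for all 21-PHAS loci and -0.22 for all PHAS loci. Of the 86, 34 were above 0, beside 147 of the 344 other 21-PHAS loci and 224 of the 659 PHAS loci.

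These counts moved with the scaling and with single libraries. Leaving out either ago18HM-2mm replicate leaves 1 library in that group, with no spread of its own. Calls lost in those fits cannot be told apart from a loss of power. With each library centred on the median of the 21-PHAS loci, which raised the median change of all PHAS loci by 0.17 on the log2 scale, 2 loci were lower and 4 higher. Without ago18HM-2mm replicate 1, the library with the highest sum, 1 locus was lower and 0 were higher, and without ago18HM-5mm replicate 1 there were 9 and 0 and the window held 71 loci. Without ago18HM-5mm replicate 2 there were 7 and 4, without replicate 3 of that group 6 and 0, and without ago18HM-2mm replicate 2 there were 9 and 0.

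**Figure D3:**
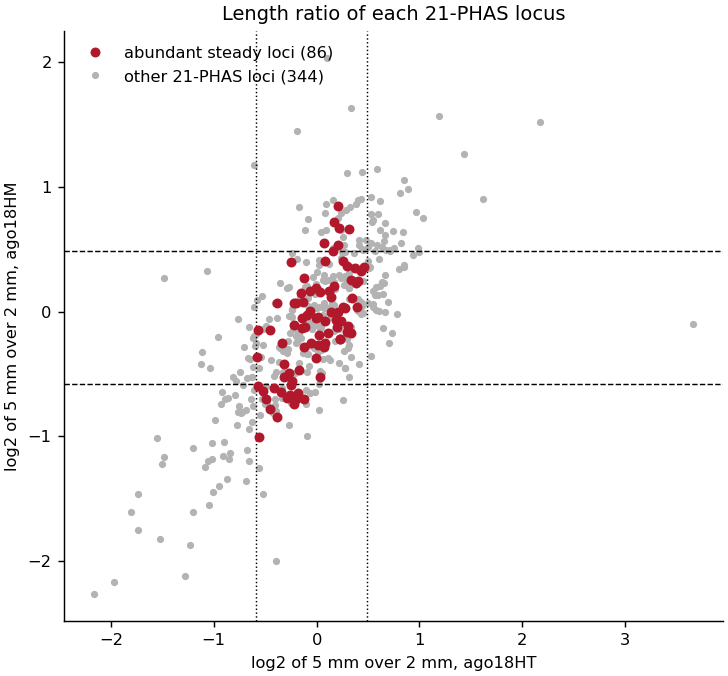
Log2 of the ratio of mean CPM at 5 mm to mean CPM at 2 mm, with 1 CPM added to both, for each 21-PHAS locus in ago18HM (vertical) and ago18HT (horizontal). Red points are the 86 loci and grey points the other 344; dotted lines mark the limits that chose the loci in ago18HT and dashed lines the same limits in ago18HM, between which 65 of the 86 loci lie.

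The 3 loci called higher in the longer ago18HM anthers were B73_21PHAS_12096, B73_21PHAS_3888 and B73_21PHAS_21386. B73_21PHAS_12096 had 1233, 683 and 766 CPM in ago18HM-5mm and 556 and 437 CPM in ago18HM-2mm. All 5 mm libraries were above both 2 mm libraries, and replicate 1 was the highest of them by far. On the log2 scale it changed by 0.81 (SE 0.26, limma adjusted p = 0.0453), and by 0.55 without that replicate (limma adjusted p = 0.0656). In ago18HT its values were 578, 569 and 578 CPM at 5 mm and 448, 601 and 442 CPM at 2 mm, which overlap.

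B73_21PHAS_3888 had 309.5, 254 and 267 CPM in ago18HM-5mm and 176 and 172 CPM in ago18HM-2mm, with no overlap and little spread within each length. The log2 fold change, 0.66 with an SE of 0.18, had an adjusted p of 0.0251 in limma. B73_21PHAS_21386, whose values are given above, also had all ago18HM-5mm libraries above both ago18HM-2mm libraries, and its change on the log2 scale was 0.66 (SE 0.17, limma adjusted p = 0.0243). Without ago18HM-5mm replicate 1 the changes at B73_21PHAS_3888 and B73_21PHAS_21386 were 0.58 and 0.57, with adjusted p-values of 0.0462 and 0.0415 in limma, and both fell short of the 1.5-fold limit. Of the 3 calls, 0 remained when ago18HM-5mm replicate 3 or either ago18HM-2mm replicate was left out.

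Among the 12 lower loci, the log2 fold changes ran between -1.04 and -0.59, and at all 12 every ago18HM-5mm library was below every ago18HM-2mm library. Over the 86 loci this order was seen at 27 loci, beside 27.6% of the other 21-PHAS loci and 34.7% of all PHAS loci. Without ago18HM-5mm replicate 1, which leaves fewer libraries to overlap, it was seen at 34 loci, beside 38.4% and 45.7%. B73_21PHAS_48790 changed most, with 174, 291 and 273 CPM in ago18HM-5mm and 543 and 449 CPM in ago18HM-2mm (log2 fold change -1.04, SE 0.21, limma adjusted p = 0.0105). The same order stood in ago18HT, with 276, 262 and 268 CPM at 5 mm and 431, 365 and 393 CPM at 2 mm and a ratio of 0.679 near the lower limit.

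B73_21PHAS_7660 had 409.5, 368 and 425 CPM in ago18HM-5mm and 884 and 560.2 CPM in ago18HM-2mm. The 2 mm libraries were both above those of 5 mm but far from each other. The change was -0.81 on the log2 scale (SE 0.20, limma adjusted p = 0.0213). It was -0.49 without ago18HM-2mm replicate 1, which leaves 1 library in that group. B73_21PHAS_39867 had 411, 420.4 and 463 CPM in ago18HM-5mm and 764 and 718 CPM in ago18HM-2mm, with narrow groups and a wide gap between them. Its log2 fold change was -0.78 (SE 0.13, limma adjusted p = 0.00399), and it was past the limits of the test in each alternative fit tried for this locus. It was the 1 locus called lower without ago18HM-2mm replicate 1, where B73_21PHAS_48790 had -0.90 (limma adjusted p = 0.0665).

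**Figure D4:**
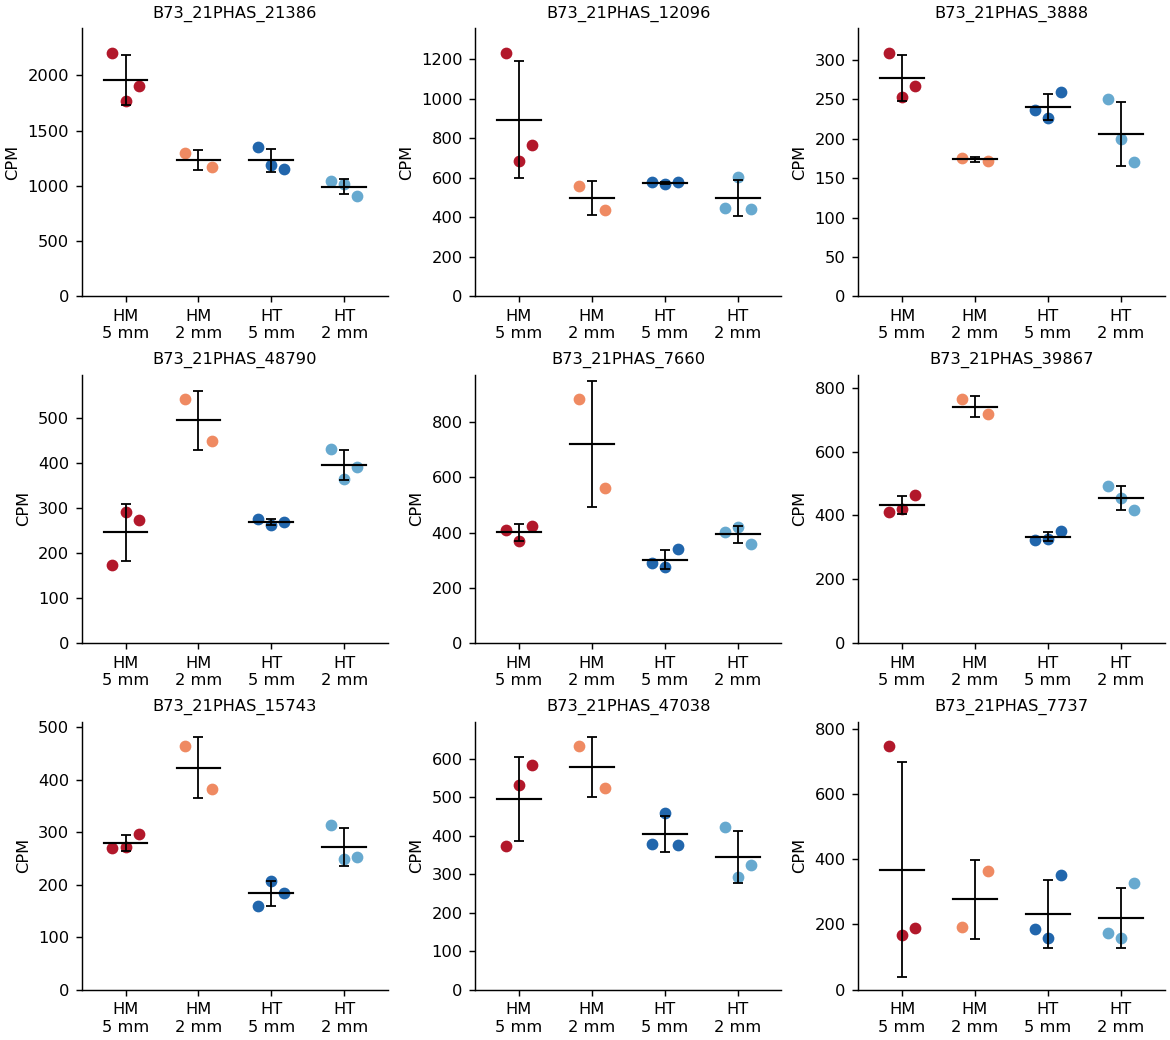
CPM in each library for 9 of the loci named in the text, by group. Points are libraries, horizontal lines are means and error bars are SDs (n = 3, and 2 for HM 2 mm); the top row holds the 3 loci called higher in the longer ago18HM anthers, the middle row 3 of the 12 lower ones, and the bottom right panel the locus with the largest spread, 748.5 CPM in ago18HM-5mm replicate 1 against 166 and 189 CPM in the other replicates.

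The other 21-PHAS loci give the scale for these counts. The 201 loci inside the ratio window but under the abundance limit (low steady loci) were inside it in ago18HM at 146 loci (72.6%), with 14 lower and 7 higher calls and a median log2 fold change of -0.10. Of the 71 loci whose ratio in ago18HT was at or below the lower limit (falling loci), 40 were lower in ago18HM, with a median of -0.81, and 24 (33.8%) were inside the window. Of the 59 at or above the upper limit (rising loci), 12 were higher, with a median of 0.48, and 27 (45.8%) were inside. With ago18HM-5mm replicate 1 left out, 156 of the low steady, 16 of the falling and 33 of the rising loci were inside the window, with medians of -0.12, -0.82 and 0.43. By the share inside the window and by the median, the abundant steady loci thus lay near the low steady loci. Lower calls made up a larger part of the abundant set, 12 of 86 loci beside 14 of 201. The difference between these sets was not tested.

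The second comparison asked how the loci differed between the genotypes at each length. The ago18HT libraries that chose the loci are also the reference here, so values and calls are not independent of the choice. Since loci known from earlier results to be lower in ago18HM are among those left out by number, the counts of lower calls are in part set by the choice of loci. Of those 13, 8 were called lower at 5 mm and 2 at 2 mm. These were all of the lower calls among the 21-PHAS loci, and 0 low steady, 0 falling and 0 rising loci were called lower at either length. At 5 mm 0 loci were lower and 2 were higher in ago18HM (limma, adjusted p below 0.05 and a change above 1.5-fold), beside 21.1% lower and 2.58% higher over all PHAS loci and 2.33% lower and 4.36% higher over the other 21-PHAS loci, with 1.86% lower and 3.95% higher over all 21-PHAS loci. At an unadjusted p under 0.05 in the limma fit, 0 were lower and 14 higher. Beside these were 10 lower and 39 higher of the 344 other 21-PHAS loci, and 146 lower and 53 higher of the 659 PHAS loci. The voom method of limma on recovered reads gave 0 lower and 2 higher of the 86. Without ago18HM-5mm replicate 1 the count of higher loci was 1, without replicate 3 of that group it was 1 with 1 lower, and without ago18HT-5mm replicate 1 it was 1. The log2 fold change was above 0 at 64 of the 86 loci, beside 207 of the 344 other 21-PHAS loci and 334 of the 659 PHAS loci. Its median was 0.16, beside 0.11 for all 21-PHAS loci and 0.01 for all PHAS loci. It was 0.077 for the 201 low steady, 0.26 for the 71 falling and 0.0037 for the 59 rising loci, with 7, 6 and 2 called higher.

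At 2 mm 0 loci were lower and 7 were higher in ago18HM, beside 17.0% lower and 1.97% higher over all PHAS loci and 0.581% lower and 1.74% higher over the other 21-PHAS loci, with 0.465% lower and 3.02% higher over all 21-PHAS loci. At an unadjusted p under 0.05 in the limma fit, 0 were lower and 23 higher. Beside these were 6 lower and 47 higher of the 344 other 21-PHAS loci, and 136 lower and 70 higher of the 659 PHAS loci. On recovered reads voom gave 0 lower and 5 higher of the 86. Leaving out either ago18HM-2mm replicate leaves 1 library in that group, with no spread of its own. The count of higher loci was 1 without ago18HM-2mm replicate 1, 11 without replicate 2 of that group, 2 without ago18HT-2mm replicate 3 and 11 without ago18HM-5mm replicate 1, which enters this comparison only through the shared estimate of the spread. The log2 fold change was above 0 at 73 of the 86 loci, beside 238 of the 344 other 21-PHAS loci and 321 of the 659 PHAS loci. Its median was 0.28, beside 0.20 for all 21-PHAS loci and -0.02 for all PHAS loci. It was 0.16 for the 201 low steady, 0.19 for the 71 falling and 0.29 for the 59 rising loci, with 1, 1 and 4 called higher. Every ago18HM-2mm library was above every ago18HT-2mm library at 47 loci, beside 32.0% of the other 21-PHAS loci and 23.8% of all PHAS loci, and below at 5 loci, beside 6.98% and 25.5%. At 5 mm the libraries did not overlap, with ago18HM above, at 27 loci, beside 19.5% and 15.3%, and with ago18HM below at 0 loci, beside 6.69% and 24.7%. These counts without ago18HM-5mm replicate 1 were 49 above, beside 28.8% and 23.7%, and 2 below, beside 11.6% and 28.5%.

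The small upward shift again changed with the scaling and with the denominator of the CPM. Leaving the meiotic 24-PHAS reads out of it moved the median change of all PHAS loci by -0.38 at 5 mm and by -0.25 at 2 mm on the log2 scale, and the changes of the 86 loci have to be read relative to that shift. At 5 mm 5 loci were then lower and 0 higher, beside 174 lower and 0 higher of the 659 PHAS loci. Their median was -0.22, beside -0.26 for all 21-PHAS loci and -0.37 for all PHAS loci, and 16 of 86 were above 0. At 2 mm 0 were lower and 0 higher, beside 124 lower and 3 higher of all PHAS loci. Their median was 0.03, beside -0.04 for all 21-PHAS loci and -0.27 for all PHAS loci, and 47 of 86 were above 0. Centred on the 21-PHAS loci, 0 were higher at 5 mm and 1 at 2 mm, with medians of 0.07 and 0.12. Median ratio scaling went the other way, with 5 higher at 5 mm and 8 at 2 mm. The medians were then 0.28 and 0.36, beside 0.12 and 0.05 for all PHAS loci, and 74 and 73 of 86 were above 0.

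The 2 loci higher at 5 mm were B73_21PHAS_21386 and B73_21PHAS_15743. The log2 fold change of B73_21PHAS_21386 was 0.66 with an SE of 0.15 (limma adjusted p = 0.00844), and all of its ago18HM-5mm libraries, given above, were above all ago18HT-5mm libraries. B73_21PHAS_15743 had 270.4, 271 and 297 CPM in ago18HM-5mm and 158.5, 207 and 184 CPM in ago18HT-5mm (log2 fold change 0.61, SE 0.15, limma adjusted p = 0.0122). At 2 mm it had 464 and 382 CPM in ago18HM and 313.5, 249 and 253 CPM in ago18HT (log2 fold change 0.64, SE 0.17, limma adjusted p = 0.0226). It was the only locus of the 86 that was called higher at both lengths, with no overlap at either. Its length ratio was 0.661 in ago18HM and 0.675 in ago18HT, which are close to each other and to the lower limit.

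At 2 mm the largest increases were at B73_21PHAS_7660, B73_21PHAS_47038 and B73_21PHAS_39867. B73_21PHAS_7660 had 884 and 560.2 CPM in ago18HM-2mm and 400.4, 419.5 and 360.4 CPM in ago18HT-2mm (log2 fold change 0.84, SE 0.20, limma adjusted p = 0.0131). B73_21PHAS_47038 had 633 and 524 CPM in ago18HM-2mm and 421, 292 and 323 CPM in ago18HT-2mm (log2 fold change 0.75, SE 0.23, limma adjusted p = 0.0491). At both loci the groups did not overlap. Without ago18HM-2mm replicate 1, the higher library at both, that group holds 1 library, and neither call held. B73_21PHAS_39867 had 764 and 718 CPM in ago18HM-2mm and 491, 456 and 417 CPM in ago18HT-2mm (log2 fold change 0.71, SE 0.13, limma adjusted p = 0.00372). Its groups stood well apart. However, its call did not hold with only the 2 mm libraries fitted, nor with the meiotic 24-PHAS reads left out of the denominator. In each of these fits 0 of the 86 loci were called higher. The ago18HM-2mm libraries also enter the length comparison, where B73_21PHAS_7660 and B73_21PHAS_39867 were lower at 5 mm, so the results of the comparisons are not independent.

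No locus was called lower, and the loci with the smallest p among negative changes did not pass the test. At 5 mm this was B73_21PHAS_4269, with 188, 191 and 323 CPM in ago18HM and 265.5, 309 and 315 CPM in ago18HT (log2 fold change -0.38, SE 0.21, limma adjusted p = 0.263). Replicate 3 of ago18HM was above all ago18HT libraries and the others were below all of them, and without that replicate the change was -0.64 (limma adjusted p = 0.00982). At 2 mm it was B73_21PHAS_43227, with 135 and 171 CPM in ago18HM and 208, 254 and 209 CPM in ago18HT (log2 fold change -0.55, SE 0.26, limma adjusted p = 0.187). Its groups did not overlap.

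**Figure D5:**
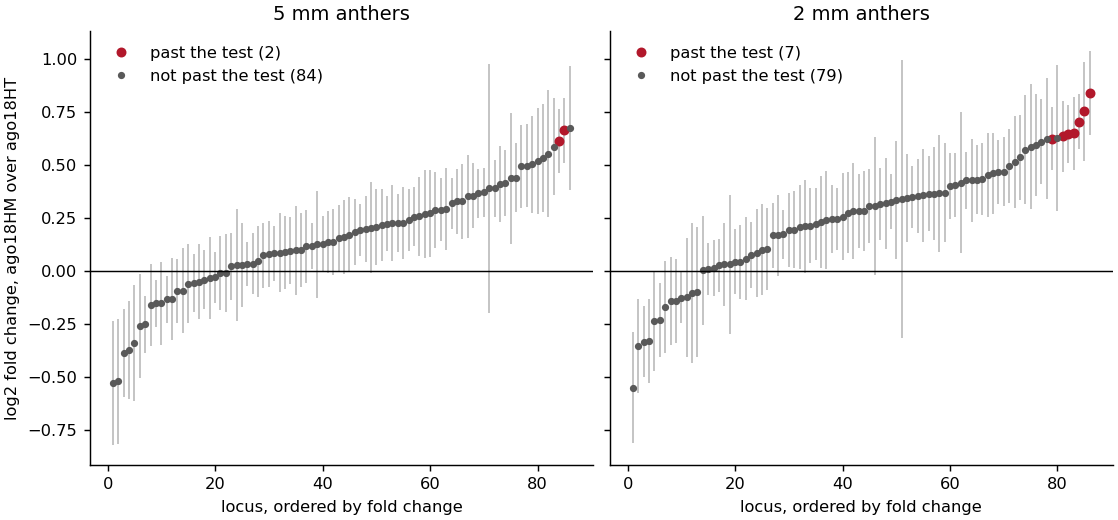
Log2 fold change of ago18HM over ago18HT for each of the 86 loci in 5 mm anthers (left) and 2 mm anthers (right), ordered by size. Bars are standard errors of the limma fit and red points passed the test, 2 at 5 mm and 7 at 2 mm; 64 and 73 loci lie above 0.

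The third comparison, whether the genotype difference changed with length, used the ago18HT length ratio that chose the loci and is given as values only. The term, the log2 genotype difference at 5 mm minus that at 2 mm, ran between -0.63 and 0.62 over the 86 loci. Its median was -0.14, beside -0.08 for all 21-PHAS loci and -0.12 for all PHAS loci.

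The spread within ago18HM-5mm rested largely on 1 library. The median coefficient of variation was 18.3% in ago18HM-5mm, 10.7% in ago18HM-2mm, 7.04% in ago18HT-5mm and 9.43% in ago18HT-2mm. The median within-group SD of log2(CPM + 1) was 0.26 in ago18HM and 0.13 in ago18HT. Leaving out ago18HM-5mm replicate 1 gave a coefficient of 5.2% in ago18HM-5mm, below that of ago18HT-5mm, and an SD of 0.15 in ago18HM. The low steady loci had SDs of 0.30 in ago18HM and 0.18 in ago18HT, and 0.20 in ago18HM without that library. Differences in spread were not tested.

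The smallest spread within the ago18HM groups was at B73_21PHAS_14655. It had 308, 318 and 302 CPM in ago18HM-5mm and 378 and 375 CPM in ago18HM-2mm, so that all 5 mm libraries were below both 2 mm libraries. In ago18HT it had 313, 331 and 377 CPM at 5 mm and 356.5, 390.5 and 362 CPM at 2 mm. The most variable locus was B73_21PHAS_7737, with 748.5, 166 and 189 CPM in ago18HM-5mm, 192 and 364 CPM in ago18HM-2mm, 185, 159.7 and 353 CPM in ago18HT-5mm, and 173.5, 159 and 327 CPM in ago18HT-2mm. At this locus each group held 1 library far above the others, so that group means say little about it. The length ratio of 1.06 in ago18HT that placed it among the steady loci averages over that spread.

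The loci lay in neighbourhoods. With loci of the set joined where the gap was at most 250 kb, 69 of the 86 fell into 21 groups of at least 2 and 17 stood alone. Chromosomes 1 and 2 held 21 loci each, of 88 and 93 21-PHAS loci there, chromosome 7 held 14 of 70, chromosome 4 held 13 of 62 and chromosome 10 held 8 of 48. The other chromosomes held 9 together. Other 21-PHAS loci lay between them in each of the largest groups.

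The largest group had 8 loci among 18 21-PHAS loci at chr1:166828130-167273564. Its length ratios in ago18HM ran between 0.679 and 1.59, with 3 of the 8 log2 fold changes above 0 (4 without ago18HM-5mm replicate 1), so that neighbours differed in direction. The next had 6 loci among 14 at chr4:5697613-5862807, where ratios ran between 0.916 and 1.65 in ago18HM and between 0.843 and 1.196 in ago18HT, and the median log2 fold change between the lengths in ago18HM was 0.39, with 4 of 6 above 0 and 0 called. Without ago18HM-5mm replicate 1 the median there was 0.23, with 6 of 6 above 0 and ratios of 1.02 to 1.43. At chr7:21174773-21277129, with 5 loci among 6, the ratios were 0.583 to 1.05 in ago18HM and 0.667 to 0.873 in ago18HT, and the median was -0.46, with 4 of 5 below 0 and B73_21PHAS_39867 called. Without that library the median was -0.37, with 0 of 5 above 0. The other group of 5, among 9 at chr10:118818800-119048963, had ratios of 0.666 to 1.45 in ago18HM and 0.843 to 1.29 in ago18HT, and without that library 0.777 to 1.196 in ago18HM. Differences between these groups were not tested.

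By RefSeq annotation of the same assembly, 81 of the 86 loci overlapped no gene, and the median distance of those to the nearest gene was 21934 bases. B73_21PHAS_21386, the most abundant locus, overlapped LOC103652799, a long noncoding RNA gene. B73_21PHAS_54533, B73_21PHAS_3907 and B73_21PHAS_3905 overlapped the protein-coding genes LOC103642746, LOC100277452 and LOC103645020, and B73_21PHAS_4269 overlapped the pseudogene LOC103640709. Protein-coding genes were thus overlapped by 3.49% of these loci and by 4.94% of the other 21-PHAS loci. The loci were 559 to 3418 bases long, with a median of 1064.5 bases, beside 920 bases for the low steady loci, 907 for the falling and 861 for the rising ones. A longer locus can collect more CPM. Per kb the median level in ago18HT was 329 CPM for these loci, 74.7 for the low steady, 158 for the falling and 86.6 for the rising ones. The abundance limit was applied to these same libraries, so the higher level of the 86 loci follows in part from the choice.

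The most abundant small RNA was 21 nt long at all 86 loci. It began with A at 67 loci (77.9%), C at 10 (11.6%), U at 5 (5.81%) and G at 4 (4.65%). At the other 21-PHAS loci with a small RNA of that length A began 74.9%, C 13.4%, G 7.58% and U 4.08%. Among the falling loci C began 26.8%, and among the rising ones 5.08%. The median GC content was 47.6% in the set and at the other 21-PHAS loci alike.

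At 6 of the 86 loci this small RNA was the same as at another PHAS locus, among 25 such loci of the 430. Multi-mapping reads were included in the counts. How each was assigned among its loci is not given in the sources used here, so the values of such partners may not be independent. B73_21PHAS_4267 and B73_21PHAS_4269, 8.28 kb apart, were both in the set, with 179, 307 and 393 CPM and 188, 191 and 323 CPM in ago18HM-5mm and 396 and 448 CPM and 364 and 396.5 CPM in ago18HM-2mm. In both the 5 mm libraries were below those of 2 mm, B73_21PHAS_4269 was called (log2 fold change -0.74, SE 0.23, limma adjusted p = 0.0419) and B73_21PHAS_4267 was not (-0.60, SE 0.28, limma adjusted p = 0.154).

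The other partners fell partly into different classes by their ago18HT ratios although they shared this small RNA. B73_21PHAS_11702, with a ratio of 0.901, shared it with B73_21PHAS_11720, a falling locus with 0.665 and 931.8 CPM. B73_21PHAS_54516, with 1.15, shared it with B73_21PHAS_54521, a rising locus with 1.51, and B73_21PHAS_54525, a low steady locus with 1.11. B73_21PHAS_21414 and B73_21PHAS_21400 had 1.198 and 1.23, and B73_21PHAS_3888 and B73_21PHAS_3893 had 1.16 and 1.22. In ago18HM B73_21PHAS_3893 had 243, 175 and 183.5 CPM at 5 mm and 119 and 108 CPM at 2 mm, in the same order as B73_21PHAS_3888.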

How the data were processed

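TraPR small RNA libraries of anthers were compared between ago18HM and ago18HT plants and between 5 mm and 2 mm anthers. The authors mapped reads to B73 RefGen_v5 with Bowtie 1.3.1, counted them at PHAS loci with featureCounts 1.6.3, multi-mapping reads included, and deposited CPM made with edgeR 4.0.2. Loci, their positions and most abundant small RNAs were those annotated by the study with ShortStack. Reads per library were recovered from the steps between CPM values, with a tolerance of 0.001 reads.

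CPM were tested as log2(CPM + 1) with limma 3.58.1 in R 4.3.3, so that fold changes are on that scale, with 4 group means over 11 libraries, a trended prior, two-sided tests and Benjamini-Hochberg adjustment over 659 loci. The filter, at least 1 CPM in 2 libraries, removed 0 loci. Calls needed an adjusted p below 0.05 and a change above 1.5-fold. The fit was tested on simulated data. This was the planned test for a table of CPM. A count test was planned only for a table of counts and was not run. The voom fit on recovered reads was an alternative added later. The loci and lists were chosen with earlier results of these data known.

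Named loci were the 6 highest by CPM and 3 by CPM per kb, up to 3 with the largest called change in each direction of each comparison, or else the 1 with the smallest p, the loci on either side of each limit, those with the largest and smallest spread in ago18HM, left-out loci within the limits, and loci sharing their small RNA or neighbourhood with others. Any other locus named was picked with its values in view. Other pseudocounts, filters, scalings, thresholds, sets of libraries and limits were tried.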

Additional observations from a re-analysis of the deposited data

How the results depend on the processing

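Counts of called loci are given as lower and higher. For 5 mm against 2 mm in ago18HM, where 12 and 3 were called, the counts were 2 and 4 with centring on the 21-PHAS loci (median change 0.051), 3 and 4 with median ratio scaling, 1 and 0 with only the groups compared, 6 and 2 with voom, 1 and 0 at an adjusted p below 0.01, 2 and 2 at a CPM limit of 400 and 4 and 3 in a narrower ratio window. Leaving out 1 library gave 1 to 12 lower and 0 to 4 higher, with medians of -0.16 to -0.0071 and 59 to 72 loci in the window; at a CPM limit of 400, 26 of 34 were inside.

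For ago18HM against ago18HT at 5 mm, where 0 and 2 were called, 0 were higher with centring, 5 with median ratio scaling (median 0.28), 4 by adjusted p alone and 1 each at an adjusted p below 0.01, a CPM limit of 400 and the narrower window. With the meiotic reads left out, 5 were lower and 0 higher (median -0.22, beside -0.37 for all PHAS loci), with left-out loci put back 1 was lower, and leaving out 1 library gave 0 to 1 lower and 1 to 3 higher. At 2 mm, where 0 and 7 were called, 1 was higher with centring (median 0.12), 8 with median ratio scaling (median 0.36), 0 with only the groups compared, 0 with the meiotic reads left out (median 0.033), 2 at an adjusted p below 0.01, 1 at a CPM limit of 400, 3 in the narrower window and 1 to 11 without 1 library.

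The ratios of summed CPM, ago18HM over ago18HT, were 1.09 at 5 mm and 1.08 at 2 mm with centring, 1.26 and 1.28 with median ratio scaling, 0.891 and 1.02 with the meiotic reads left out, and 1.15 to 1.19 and 1.15 to 1.28 without 1 library. The ratio of 5 mm to 2 mm in ago18HM was 1.08 with centring, 1.03 with median ratio scaling, 1.03 at a CPM limit of 400 and 0.913 to 1.01 without 1 library. Over all PHAS loci the share of higher among all calls between the lengths was 16.4%, against 30.5% with centring and 26.4% with median ratio scaling. The voom and denominator alternatives and the descriptive values without ago18HM-5mm replicate 1 were added after seeing the data, and an edgeR test on counts was not run. Replicate numbers did not pair the samples (median r -0.18 over 15 same-numbered pairs and 0.10 over 30 others), and with them as a block 8 were lower and 2 higher between the lengths, 2 were higher at 5 mm and 5 at 2 mm. Over all counts, medians and ratios under the alternatives, 298 values stayed close to those reported and 59 moved. For single loci 226 stayed on the same side of the test, 58 no longer passed and 2 newly passed. Of the 13 results for single loci, 2 stayed on the same side of the test throughout. These were the length change of B73_21PHAS_39867 in ago18HM, which was called, and the 2 mm change of B73_21PHAS_43227, which was called in no fit. The causes were not tested.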

Other observations

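B73_21PHAS_7737, the most variable of the 86 loci, had neighbours that were high in the same libraries. The locus B73_21PHAS_7738 starts 110 bases beyond it at chr1:291425239-291426959 and is among those left out by number. It had 298, 2.77 and 4.34 CPM in ago18HM-5mm, 10.5 and 168 CPM in ago18HM-2mm, 6.14, 3.71 and 205 CPM in ago18HT-5mm, and 3.66, 8.19 and 161 CPM in ago18HT-2mm. The libraries with over 150 CPM there, ago18HM-5mm replicate 1, ago18HM-2mm replicate 2, ago18HT-5mm replicate 3 and ago18HT-2mm replicate 3, are the 4 libraries in which B73_21PHAS_7737 was highest. They belong to each of the 4 groups.

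The same 4 libraries were the highest at B73_21PHAS_7742, 58 kb away, and at B73_21PHAS_7754, 420 kb away, which are low steady loci. B73_21PHAS_7742 had 335, 138 and 150.2 CPM in ago18HM-5mm, 104 and 305 CPM in ago18HM-2mm, 88.8, 75.8 and 232 CPM in ago18HT-5mm, and 96.2, 71.7 and 302 CPM in ago18HT-2mm. B73_21PHAS_7754 had 647, 79.5 and 101 CPM in ago18HM-5mm, 161 and 384 CPM in ago18HM-2mm, 90.7, 65.4 and 363 CPM in ago18HT-5mm, and 96.7, 81.3 and 366 CPM in ago18HT-2mm. B73_21PHAS_7732, which is among the 86 and lies 19 kb to the other side, did not show this order, with 463, 383 and 433 CPM in ago18HM-5mm, 526 and 358 CPM in ago18HM-2mm, 318, 305 and 332 CPM in ago18HT-5mm, and 371, 351 and 330.5 CPM in ago18HT-2mm. B73_21PHAS_7729, also among the 86 and 101 kb away on that side, did not show it either. The falling locus B73_21PHAS_7735, 1.29 kb away on that side, showed it in part. There the same 4 libraries were the highest within each group, but not over all 11 libraries. Farther out on that side, the same 4 libraries were again the highest at the premeiotic 24-PHAS locus B73_24PHAS_7718, 208 kb away. It had 48.5, 1.11 and 0.899 CPM in ago18HM-5mm, 0.0566 and 44.3 CPM in ago18HM-2mm, 1.26, 0.618 and 25.7 CPM in ago18HT-5mm, and 0.0915, 0.0605 and 32.1 CPM in ago18HT-2mm. These neighbours were chosen once their values had been seen, and the cause was not tested.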
